A study of Mus musculus with 16 samples.

Results

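RNA captured for abasic sites from peroxide-treated Neuro 2a cells was compared with RNA captured in the same way from untreated cells. The comparison took the 4 arrays titled Ox-ARP and the 4 titled Basal-ARP, chosen by these titles, which are 8 of the 16 arrays of the study. Neuro 2a, a mouse line of neuroblastoma origin, is given the strain C57BL/6J in the labels. Basal cells had no treatment and Ox cells had hydrogen peroxide. Its dose and duration were not given in the sources used here. In all groups RNA was extracted with TRIzol and derivatized with ARP, an aldehyde reactive probe carrying biotin, and for the ARP groups the derivatized RNA was pulled down on streptavidin beads. The remaining 8 arrays, Basal-total and Ox-total with 4 each, held RNA without pull-down. They were used here only to set a gene's change in captured RNA beside its change before capture. A single cell line was studied. No group held RNA pulled down without ARP, so retention on the beads without label cannot be told apart from abasic sites. Nothing in the labels says that replicates came from separate cultures, so p-values measure the spread between these samples, which may be technical.

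An abasic site forms when a damaged base is lost from a nucleotide and the sugar stays in the chain, where its open form exposes an aldehyde that ARP can bind. Hydrogen peroxide reacts with cellular iron to give hydroxyl radicals, which attack RNA as well as DNA, and RNA has no counterpart of the base excision repair that clears such sites from the genome. Oxidized mRNAs slow or stall ribosomes, and RNA oxidation has been described in vulnerable neurons in neurodegenerative disease. The arrays measured the relative signal of each transcript within the captured pool. A change therefore reports a gene's share of the signal from that pool after labelling for the array. An effect of abasic sites on that labelling was not tested, and how much RNA came off the beads was not measured. Fewer cells of a type and less RNA per cell cannot be told apart in such bulk samples. From the captured arrays alone, fewer molecules of a transcript and a smaller portion of them on the beads cannot be told apart either. The interaction given below compares a gene's change after capture with its change before, both as relative signals.

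Mean bead signals ran from 328 to 489 on the Basal-ARP arrays and from 350 to 494 on the Ox-ARP arrays, and between 10632 and 11068 of 25697 probes were detected on each. Pairs of captured arrays correlated at 0.957 to 0.995 over the 8072 genes tested. The first principal component of the 8 captured arrays held 51.0% of the variance and had every Basal-ARP array on one side and every Ox-ARP array on the other. Basal-ARP replicate 3 stood apart from its group and received a weight of 0.33 when arrays were weighted by their fit, and Ox-ARP replicate 1 received 0.56. Within each bead chip the position of an array was not shared between groups, so an effect of position cannot be told apart from that of the group. Of 18 neuroblastoma and neuron markers 12 passed the filter and 11 were detected on all 8 captured arrays, among them Phox2a, Hand2, Dbh and Th. None of 4 astrocyte, 5 leukocyte or 4 red cell markers passed. Of 6 fibroblast markers Dcn passed, with detection on 2 Basal-ARP and all 4 Ox-ARP arrays, and was called higher in Ox-ARP (0.44 ± 0.14, adjusted p 0.03, with 0.34 in total RNA). The 5 others were below the filter, and the part of these cells in other results was not tested. Of 4 epithelial markers Krt8 passed and was not called.

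With peroxide the signal from the captured pool changed broadly and mostly by small amounts. A gene was tested where its probe was detected on all 4 arrays of at least 1 group, and is represented by its brightest probe. Each change is a log2 fold change ± the standard error from limma, over 4 arrays in each group. Of 8072 genes, 2214 (27.4%) changed at a Benjamini-Hochberg adjusted p under 0.05 in limma, 1122 (13.9%) higher and 1092 (13.5%) lower in Ox-ARP. The median size of a called change was 0.44 on the log2 scale, and 55 genes changed by 2-fold or more, 4 upward (0.0496%) and 51 downward (0.632%). Among the 7359 genes detected on all 16 arrays 38 changed by 2-fold or more. Among all 8072 genes the number was 24 without background correction and 134 with the authors' processed intensity values. In the 4 same-numbered comparisons of an Ox-ARP with a Basal-ARP array, 1093 of the raised and 1051 of the lowered genes moved the same way each time, and so did all 55 of the larger changes. The arrays of the groups did not overlap for 884 of the raised and 856 of the lowered genes, against 1082 (13.4%) and 1007 (12.5%) among all genes. Without Basal-ARP replicate 3 the count of called genes was 1784, and without Ox-ARP replicate 1 it was 1768. Within the first chip alone 715 genes were called and within the second 700, and each of the 2214 genes kept its direction on either chip. The 2214 genes were called on these same arrays. Their shared direction between chips and between same-numbered comparisons therefore follows in part from that choice and is no separate replication.

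The even split between raised and lowered genes rests on quantile normalization, which gives each array the same distribution. When arrays were scaled to a common median, the median log2 change of all genes moved up by 0.12, and the 2224 called genes split into 1805 raised and 419 lowered. Without normalization the median moved up by 0.17, with 836 raised and 101 lowered. Every direction below is relative to the middle of the captured pool as quantile normalization sets it, where the median change of all genes was 0.03. All 2214 genes kept their direction under median scaling and 2202 did without normalization.

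**Figure D1:**
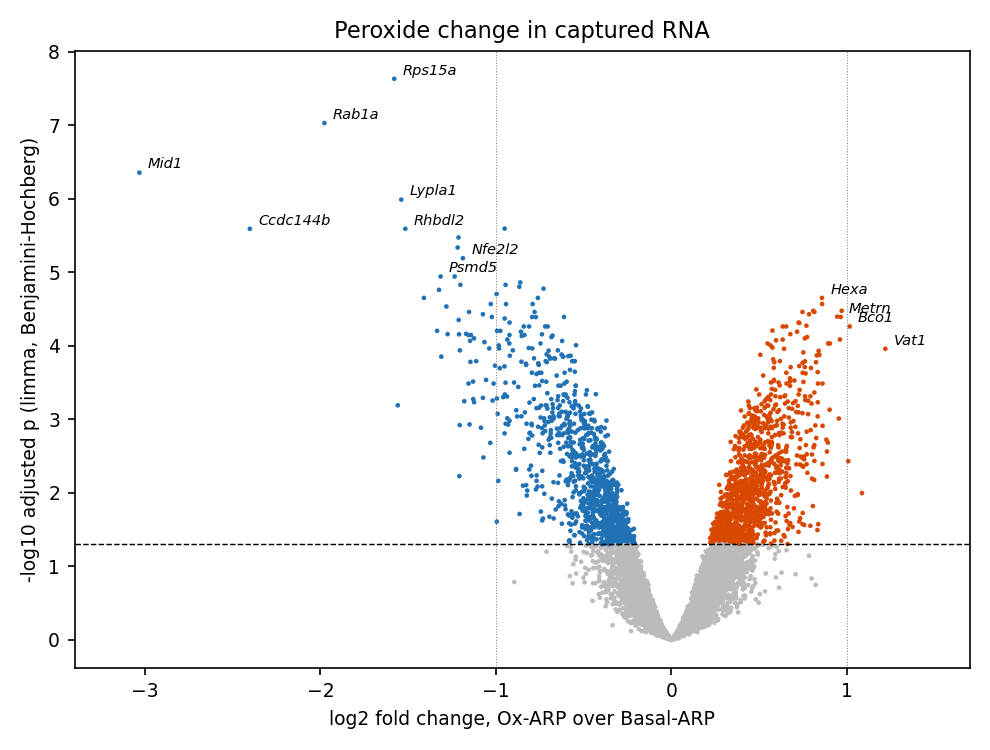
Each point is 1 of 8072 genes, with its log2 fold change in Ox-ARP over Basal-ARP on the horizontal axis and the -log10 of its adjusted p in limma on the vertical axis. Raised genes called at an adjusted p under 0.05 are orange, lowered ones blue and the others grey; the dashed line is the threshold and the dotted lines mark a 2-fold change, passed by 4 genes upward and 51 downward.

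Mid1, a microtubule-bound ubiquitin ligase, lost the most. Its log2 intensities were 8.16, 7.79, 6.6 and 7.78 on the Basal-ARP arrays and 4.58, 4.5, 4.67 and 4.44 on the Ox-ARP arrays. All Ox-ARP arrays lay below all Basal-ARP arrays, and Basal-ARP replicate 3 was the lowest of its group. The gene was detected on 4 Basal-ARP arrays and on none of the Ox-ARP or total RNA arrays, so its fall was at least 4.16-fold (adjusted p 4.4e-07). Ccdc144b, a coiled-coil protein gene, behaved alike, with log2 intensities of 7.12, 7.8, 7.04 and 7.7 on the Basal-ARP arrays and 4.68, 4.93, 5.11 and 5.34 on the Ox-ARP arrays. It too was detected on every Basal-ARP array and no Ox-ARP array, which bounds the fall at 3.71-fold or more (adjusted p 2.6e-06). Both genes passed the filter only through the group where they are high, so that they had to differ, and their p-values were computed against signal that was not detected.

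Rab1a, a small GTPase that directs vesicles from the endoplasmic reticulum to the Golgi, showed the strongest fall among genes detected on all 8 captured arrays. It read 9.48, 9.59, 9.69 and 9.9 on the Basal-ARP arrays and 7.76, 7.79, 7.98 and 7.23 on the Ox-ARP arrays, with a wide gap between the groups. The fall was 3.94-fold (log2 -1.98 ± 0.13, adjusted p 9.3e-08 in limma), while its change in total RNA was -0.21 on the log2 scale. Rps15a, a protein of the small cytosolic ribosomal subunit, had the smallest p of all genes. It read 8.81, 8.72, 8.74 and 8.64 on the Basal-ARP arrays and 7.09, 7.14, 7.17 and 7.19 on the Ox-ARP arrays, so that both groups were tight and far apart (log2 -1.58 ± 0.09, adjusted p 2.3e-08). Unlike Rab1a, Rps15a also fell in total RNA, by 1.12 on the log2 scale (adjusted p 5.9e-06).

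The depalmitoylating thioesterase gene Lypla1 read 8.92, 9.12, 9.3 and 9.14 on the Basal-ARP arrays and 7.51, 7.51, 7.84 and 7.46 on the Ox-ARP arrays, without overlap (log2 -1.54 ± 0.12, adjusted p 1.0e-06). A second probe of this gene did not follow the first, with a change of 0.18 ± 0.23 (adjusted p 0.6). Psmd5, whose protein is a chaperone for the assembly of the proteasome's regulatory particle, read 8.1, 8.11, 7.95 and 8.13 on the Basal-ARP arrays and 6.97, 6.72, 6.76 and 6.59 on the Ox-ARP arrays (log2 -1.32 ± 0.13, adjusted p 1.1e-05). Every Ox-ARP array of Psmd5 lay below every Basal-ARP array. Marchf11, a membrane ubiquitin ligase, fell by 1.56 and the rhomboid protease gene Rhbdl2 by 1.52 on the log2 scale (adjusted p 0.00064 and 2.6e-06). Erich5 fell by 1.41.

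Single genes of the cell cycle, amino acid transport and translation were also lowered. Melk, a kinase of dividing cells, fell by 1.28 and Ccne2, the cyclin E2 of entry into S phase, by 1.23 on the log2 scale (adjusted p 2.9e-05 and 1.1e-05). The 2 other probes of Melk gave -0.28 ± 0.16 and -0.13 ± 0.17, neither past the threshold. The amino acid transporters Slc38a2 and Slc1a5 each fell by 1.21. For Slc38a2 the arrays read 11.02, 11.12, 11.35 and 11.09 on the Basal-ARP arrays and 9.86, 9.94, 9.91 and 10.03 on the Ox-ARP arrays, and the groups did not overlap (adjusted p 3.4e-06). Its second probe gave 0.06 ± 0.21, with no call. For Slc1a5 a second probe fell as well, by 1.01 on the log2 scale (adjusted p 5.8e-05). Eif4g2, a translation initiation factor that works without binding the cap-binding protein, fell by 1.21 (adjusted p 4.4e-05), whereas its second probe gave 0.54 ± 0.33 (adjusted p 0.23). Prf1, the perforin gene known from cytotoxic lymphocytes, was detected on all 16 arrays and fell by 1.22 in captured RNA (adjusted p 4.6e-06), while none of the 5 leukocyte markers passed the filter.

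Gains were smaller. Vat1, a homologue of a synaptic vesicle protein, rose most, with log2 intensities of 8.73, 9.05, 8.03 and 8.96 on the Basal-ARP arrays and 9.94, 9.74, 9.9 and 10.07 on the Ox-ARP arrays. The groups did not overlap, and Basal-ARP replicate 3 was the lowest array (log2 1.22 ± 0.17, adjusted p 0.00011). Metrn, the gene of the secreted neurotrophic factor meteorin, read 9.57, 9.27, 9.11 and 9.2 on the Basal-ARP arrays and 10.53, 10.32, 9.99 and 10.18 on the Ox-ARP arrays (log2 0.96 ± 0.12, adjusted p 4.0e-05). Its lowest Ox-ARP array was above its highest Basal-ARP array. Pebp1, an inhibitor of the RAF kinase cascade, read 9.0, 8.99, 8.33 and 8.87 on the Basal-ARP arrays and 9.81, 9.8, 9.62 and 9.81 on the Ox-ARP arrays (log2 0.96 ± 0.13, adjusted p 8.2e-05). Here too Basal-ARP replicate 3 was the lowest and the groups stayed apart.

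Hexa, the alpha subunit of lysosomal beta-hexosaminidase, had the smallest p among the most raised genes and read 9.42, 9.06, 8.91 and 9.24 on the Basal-ARP arrays and 10.07, 10.07, 9.87 and 10.05 on the Ox-ARP arrays (log2 0.86 ± 0.10, adjusted p 2.2e-05). The pyridoxal phosphatase gene Pdxp rose by 0.94, the lysosomal histidine and peptide transporter Slc15a4 by 0.95 and the phosphomannomutase Pmm1 by 0.90 on the log2 scale (adjusted p 4.0e-05, 0.00098 and 9.3e-05). Fkbp8, which anchors BCL2 at mitochondria, rose by 0.89, and Ganab, the catalytic subunit of glucosidase II in glycoprotein folding, by 0.72. Of the other 2 probes of Ganab, 1 gave 0.71 ± 0.14 and the other -0.01 ± 0.12. The PDZ adaptor Gipc1 rose by 1.09 (adjusted p 0.01) with the probe of highest signal, but a second of its 4 probes fell by 0.55 (adjusted p 0.011). The 2 remaining Gipc1 probes gave -0.16 ± 0.14 and 0.69 ± 0.15.

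**Figure D2:**
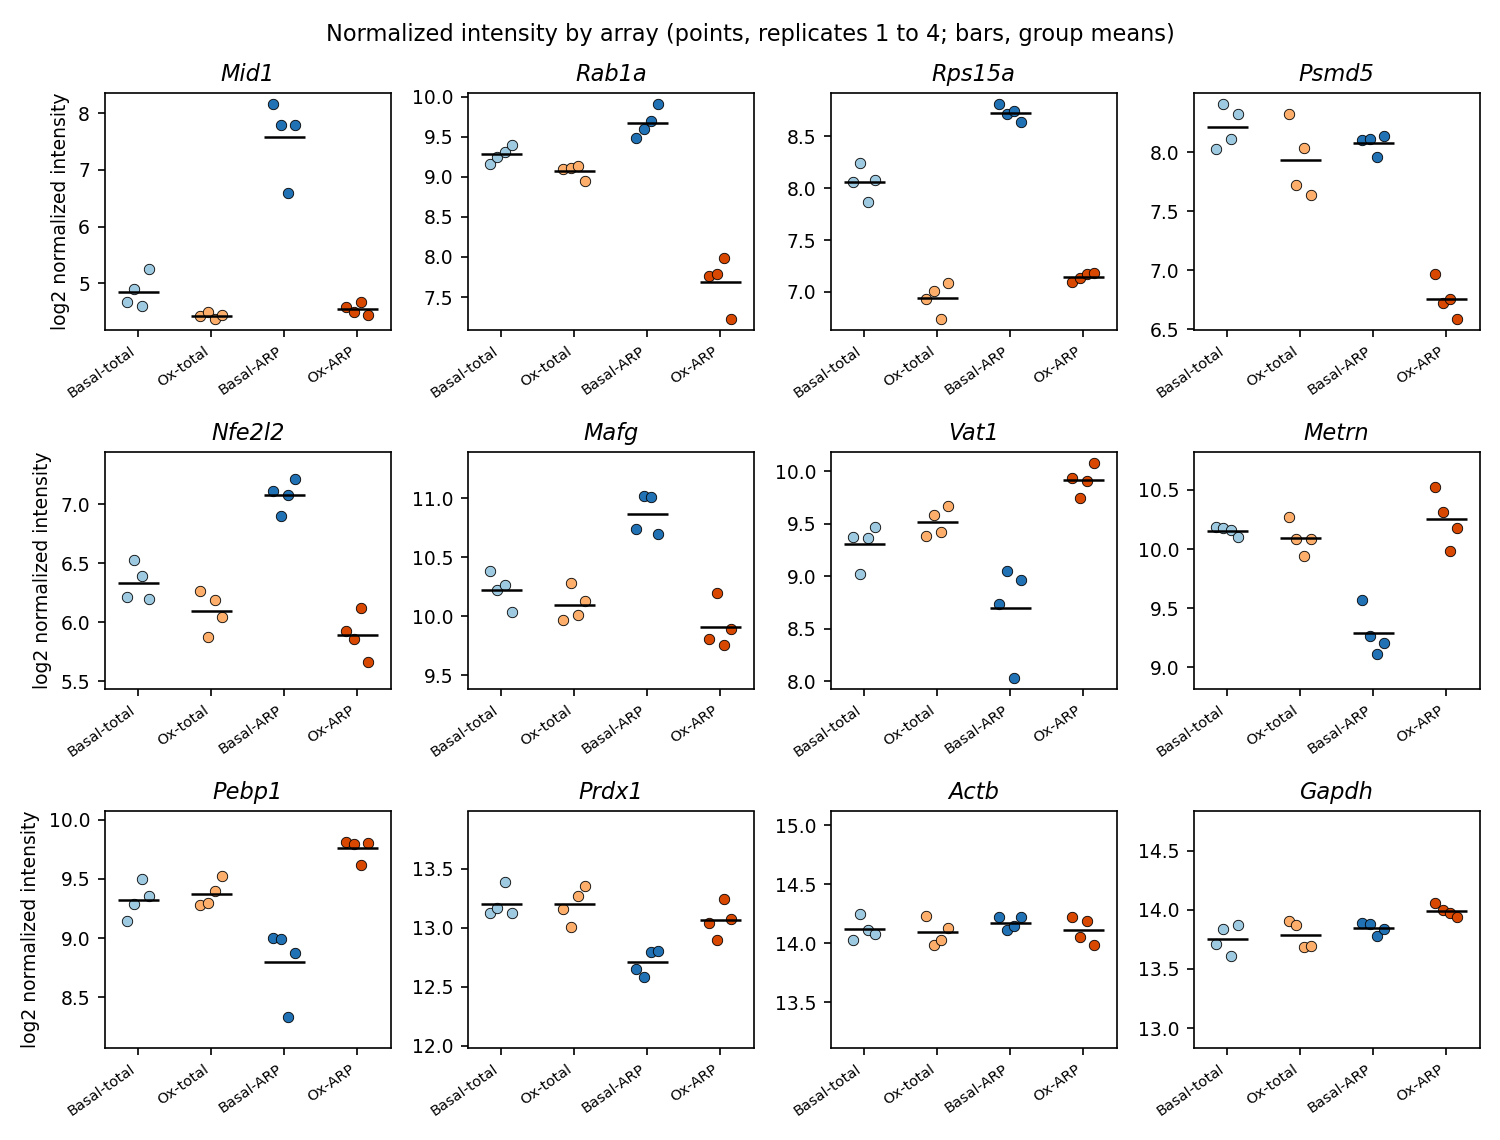
Log2 normalized intensity of 12 genes on each of the 16 arrays, with points for replicates 1 to 4 and bars for group means; the vertical range differs between panels. In captured RNA, Mid1, Rab1a, Rps15a, Psmd5, Nfe2l2 and Mafg were lower on every Ox-ARP array than on any Basal-ARP array, Vat1, Metrn, Pebp1 and Prdx1 were higher on every one, and the arrays of Actb overlapped.

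Some genes crossed the detection limit. Of the 8072 genes, 7592 were detected on all 8 captured arrays, 9 on all 4 Ox-ARP arrays and no Basal-ARP array, and 35 in the reverse pattern. These genes were picked for that difference, and Bco1 and Tpt1 among them passed the filter only through the Ox-ARP arrays, so nothing is read from how many were called. Among those that appeared with peroxide, Bco1, the beta-carotene oxygenase, read 4.83, 4.94, 5.19 and 5.12 on the Basal-ARP arrays and 6.29, 6.01, 5.71 and 6.13 on the Ox-ARP arrays, which is a rise of at least 1.5-fold (adjusted p 5.5e-05). Eapp, whose product binds E2F factors, rose at least 1.6-fold, Tpt1, the translationally controlled tumour protein, at least 1.48-fold and Pym1, which removes exon junction complexes from mRNA, at least 1.29-fold (adjusted p 0.0019, 0.00061 and 0.0002). The p-values of these genes were computed against signal that was not detected. The Tpt1 probe read 5.37, 5.3, 5.19 and 5.0 on the Basal-ARP arrays and 5.8, 6.1, 5.7 and 6.47 on the Ox-ARP arrays. In total RNA it also rose, by 0.75 (adjusted p 0.017 in limma), but it was not detected on all 4 arrays of either total RNA group. In the reverse pattern the deubiquitinase gene Usp9x fell at least 1.48-fold, with arrays at 5.65, 5.77, 7.0 and 5.95 on the Basal-ARP arrays and 4.86, 4.94, 5.03 and 4.71 on the Ox-ARP arrays. Basal-ARP replicate 3 was 1 log2 unit or more above the other Basal-ARP arrays of Usp9x (adjusted p 0.0012).

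Most of these changes were not called before capture. In total RNA 25 genes were called (0.31%), 5 raised (0.0619%) and 20 lowered (0.248%), with 834 at an unadjusted p under 0.05 against 3187 in captured RNA. The median absolute log2 change over all genes was 0.10 in total RNA and 0.20 in captured RNA. Of the 25 genes, 18 were also called in captured RNA, each in the same direction, which is 72% of the genes called in total RNA and 0.813% of those called in captured RNA. Both tests used the same variance estimate for a gene, so shared calls can follow in part from that. The 18 genes include Rps15a, Tardbp, Nfkbiz, Nr6a1 and Tpt1, which was detected on all arrays of no group but Ox-ARP. Tardbp encodes TDP-43, an RNA-binding protein of neurodegenerative disease, and changed by -0.71 on the log2 scale in both. A second Tardbp probe rose in captured RNA, with a change of 0.53 ± 0.14 (adjusted p 0.011), and the remaining 2 gave -0.19 ± 0.23 and -0.03 ± 0.16. Across all genes the changes before and after capture had a Pearson correlation of 0.51 and a Spearman correlation of 0.48, given as a description, since the points share probes, chips and a normalization. Of the genes called in captured RNA, 82.3% had the same sign in total RNA, against 67.9% of all genes.

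The interaction of peroxide and capture tests whether a gene's change after capture differs from its change before. It called 125 genes (1.55%), 56 with the more positive change in captured RNA (0.694%) and 69 with the more negative (0.855%). The interaction holds the captured arrays of the first comparison, so no overlap between the calls of these tests is read. Its median standard error was 0.17 against 0.12 for the change in captured RNA. The number of calls depended on the fit, with 526 when chip was a block, 687 with a replicate block and 479 with array weights. The count moved between 56 and 171 when single arrays were left out, with the lowest value without Ox-total replicate 3. It was 3 on the first chip alone and 0 on the second.

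Where a gene was below detection, as for Mid1, Ccdc144b and Bco1, its estimate rests on values near the floor of the arrays. On the lowered side the interaction was most negative for Mid1 (-2.61 ± 0.32, adjusted p 0.00055), Ccdc144b (-2.56 ± 0.30, 0.00048) and Rab1a (-1.77 ± 0.19, 0.00022). Prf1, Lypla1, Slc1a5, Melk and Erich5 followed, from -1.35 ± 0.16 to -1.08 ± 0.22. On the raised side it was most positive for Bco1 (1.11 ± 0.18, 0.0095), Metrn (1.03 ± 0.16, 0.0095) and the synaptic adhesion protein gene Elfn2 (1.02 ± 0.20, 0.018). Elfn2 had changes of opposite sign, -0.51 in total RNA and 0.51 in captured RNA, where it was called with overlapping arrays. Cuedc1 and the AMPA receptor auxiliary subunit gene Cacng7 also had estimates of opposite sign, with -0.28 and -0.32 in total RNA against 0.62 and 0.53 in captured RNA.

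Called by the interaction but not in captured RNA were 4 genes, named here after their values were seen. U6 small nuclear RNA (Rnu6), the catalytic RNA of the spliceosome, changed by 0.51 in total RNA and -0.28 in captured RNA, neither called (interaction -0.78 ± 0.16, adjusted p 0.02). Its arrays read 11.12, 11.02, 10.73 and 10.83 on the Basal-ARP arrays and 10.83, 10.76, 10.37 and 10.64 on the Ox-ARP arrays, with overlap. How this small RNA entered the labelling for the array was not tested, so its signal need not follow the mature RNA. Fos, an immediate early transcription factor, changed by 0.40 in total RNA and by -0.34 in captured RNA, also without a call in either (interaction -0.74 ± 0.18, adjusted p 0.048). The others were Zbtb2, a zinc finger protein gene (interaction -0.52 ± 0.11), and Prr15 (0.67 ± 0.15).

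**Figure D3:**
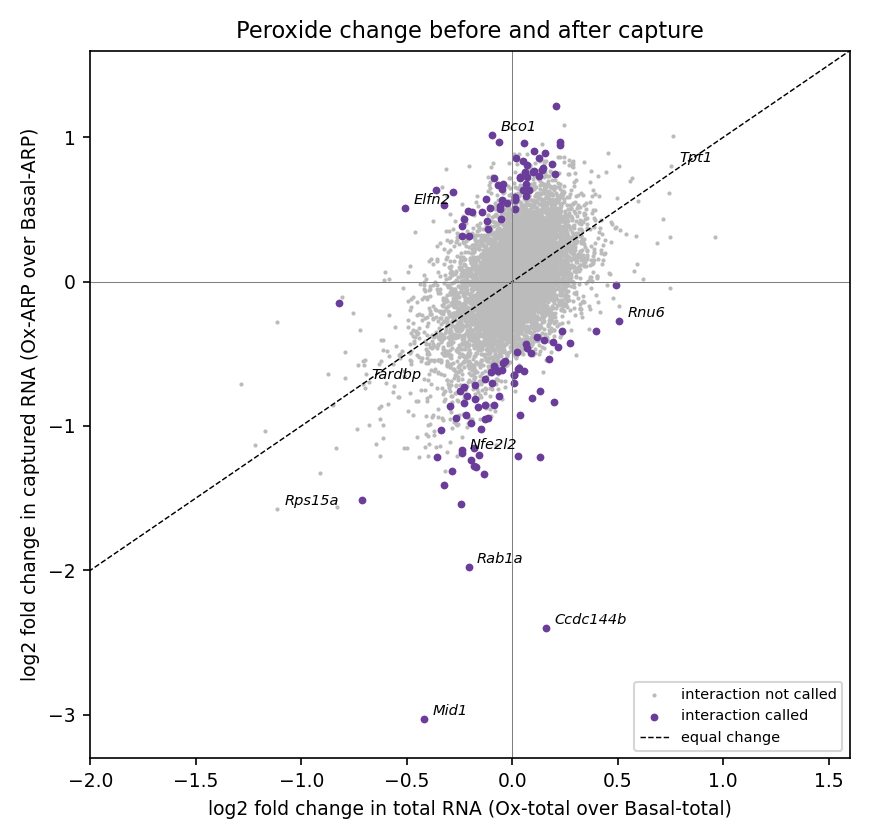
Log2 fold change with peroxide in total RNA (horizontal) and in captured RNA (vertical) for 8072 genes, with the 125 genes called by the interaction in purple. Points of the rest gather near the origin. Mid1, Ccdc144b and Rab1a lie far below the dashed line of equal change, and Bco1 and Elfn2 lie above it.

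NRF2, the transcription factor encoded by Nfe2l2, is normally held and degraded through KEAP1 and turns on antioxidant genes with small MAF proteins as partners. Nfe2l2, which was named after its values were seen, read 7.11, 6.9, 7.08 and 7.22 on the Basal-ARP arrays and 5.92, 5.85, 6.12 and 5.66 on the Ox-ARP arrays. The highest Ox-ARP array was below the lowest Basal-ARP array, and the fall was 2.28-fold (log2 -1.19 ± 0.12, adjusted p 6.4e-06). In total RNA its change was -0.24, and the interaction was called (-0.95 ± 0.16, adjusted p 0.0095). Mafg, a small MAF partner named for the same reason, read 10.74, 11.02, 11.01 and 10.69 on the Basal-ARP arrays and 9.8, 10.2, 9.76 and 9.89 on the Ox-ARP arrays (log2 -0.95 ± 0.12, adjusted p 4.2e-05), without overlap and with a called interaction (-0.82 ± 0.16, adjusted p 0.018). Keap1 changed by 0.06 ± 0.12 (adjusted p 0.75), with overlapping arrays.

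The counts below give, of the tested members of a list, those raised and lowered in Ox-ARP, to be read beside 13.9% and 13.5% of all genes. Under median scaling, where 1805 genes were raised and 419 lowered, most lists had more raised and fewer lowered members. Of 14 NRF2 target genes tested, 1 rose and 1 fell, with a median change of 0.05 against 0.03 for all genes. Taldo1, an enzyme of the pentose phosphate pathway, rose by 0.32 and the quinone reductase Nqo1 fell by 0.31 on the log2 scale, both with overlapping arrays. Heme oxygenase 1 (Hmox1) changed by 0.12 ± 0.10 and sulfiredoxin (Srxn1) by 0.10 ± 0.12, neither past the threshold (adjusted p 0.43 and 0.54). Enzymes that detoxify peroxides and superoxide gave 6 raised and 0 lowered of 21, with a median of 0.14 in captured and 0.11 in total RNA. Prdx1, an abundant peroxiredoxin, read 12.65, 12.58, 12.8 and 12.8 on the Basal-ARP arrays and 13.04, 12.9, 13.25 and 13.08 on the Ox-ARP arrays. Its groups did not overlap (log2 0.36 ± 0.10, adjusted p 0.014), and a dimmer second probe gave 0.31 ± 0.12 (adjusted p 0.065). Prdx4, Txn2, Sod1, Glrx5 and Gpx4 rose by 0.37 to 0.48, Gpx4 with overlapping arrays. The calls of Sod1, Glrx5 and Gpx4 were lost without 1 array or another, Sod1 without Basal-ARP replicate 3 (adjusted p 0.051). The share of raised members was 28.6%, and their number lay between 4 and 8 with single arrays left out.

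Of 19 immediate early and feedback genes 1 rose and 7 fell, with a median of -0.22 in captured and -0.04 in total RNA, and -0.18 relative to all genes under median scaling, where 3 rose and 4 fell. The lowered share was 36.8%, and the number lowered lay between 4 and 6 with single arrays left out (4 without Basal-ARP replicate 1 or 2 or Ox-ARP replicate 3 or 4). Nfkbiz, a nuclear regulator of NF-kappaB, fell by 1.16 and by 0.84 in total RNA (adjusted p 7.1e-05 and 0.017). The growth regulator Myc read 7.64, 7.5, 7.41 and 7.81 on the Basal-ARP arrays and 7.03, 6.72, 6.92 and 6.82 on the Ox-ARP arrays, without overlap (log2 -0.72 ± 0.14, adjusted p 0.0014). Jun, Nfkbia, Btg1, Dusp1 and Egr1 fell by 0.22 to 0.50, Jun and Nfkbia with overlapping arrays. Other probes of Btg1 gave -1.06 ± 0.10 and -0.20 ± 0.08. The calls of Jun, Nfkbia and Egr1 were lost without most single arrays, and Egr1 changed sign without normalization, at 0.01. Maff, another small MAF gene, was the member that rose (0.67 ± 0.16, adjusted p 0.0047), with overlapping arrays.

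Among 18 p53 target genes 1 rose and 5 fell, and the median was -0.21 in captured and -0.08 in total RNA. Under median scaling 2 rose and 2 fell. Ddb2, a sensor of damaged DNA, fell by 0.45, Mdm2, the ubiquitin ligase that restrains p53, by 0.35 and the ribonucleotide reductase subunit Rrm2b by 0.42 on the log2 scale (adjusted p 0.003, 0.008 and 0.013). A second Mdm2 probe gave -0.12 ± 0.10. Tnfrsf10b, a death receptor, fell by 0.99 with overlapping arrays. Phlda3, an inhibitor of AKT signalling, rose by 0.57, and the cell cycle inhibitor Cdkn1a changed by 0.09 ± 0.12 (adjusted p 0.63).

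Genes of the integrated and endoplasmic reticulum stress responses gave 6 raised (20.7%) and 4 lowered (13.8%) of 29, with a median of -0.06. The lumenal chaperones Hspa5 and Hsp90b1 rose by 0.67 and 0.57 and the disulfide isomerase Pdia6 by 0.44. Hspa5 read 6.91, 7.06, 7.31 and 7.2 on the Basal-ARP arrays and 7.61, 7.6, 7.65 and 8.3 on the Ox-ARP arrays, and Ox-ARP replicate 4 was the highest (adjusted p 0.019, and 0.076 without that array). The transcription factor Atf4 fell by 0.46, the serine synthesis enzyme Phgdh by 0.95 and Edem1, which marks misfolded glycoproteins for degradation, by 0.55, Edem1 with overlapping arrays. Ddit3, the CHOP transcription factor, changed by 0.10 ± 0.16 (adjusted p 0.67).

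Of 57 cytosolic ribosomal protein genes 6 rose and 5 fell, a called share of 19.3% beside 27.4% of all genes, and the median was 0.07. Rps15a stood far below the rest, whose called changes ran from -0.52 (Rps6) to 0.61 (Rpl19). Rpl22 rose by 0.60 (adjusted p 0.00079), and Rpl23 fell by 0.44 with 1 probe, while its 2 other probes gave 0.10 ± 0.08 and 0.20 ± 0.10. Of 37 translation factors 8 rose, among them Eif2d (0.63 ± 0.14) and Eif2b4, a subunit of the exchange factor of eIF2 (0.45 ± 0.08), and 5 fell. The number of translation factors raised lay between 4 and 9 with single arrays left out (4 without Basal-ARP replicate 3), and the number lowered between 2 and 4 with single arrays left out (2 without Basal-ARP replicate 4 or Ox-ARP replicate 2, 3 without Basal-ARP replicate 2 or Ox-ARP replicate 4). Of 30 aminoacyl-tRNA synthetases 4 rose, Cars and Qars by 0.53 each, and 2 fell, Farsa by 0.56. Mitochondrial ribosomal proteins gave 12 raised and 2 lowered of 70, with a median of 0.14 in captured and 0.12 in total RNA. The raised share was 17.1%, and the median was 0.08 without Basal-ARP replicate 3. Mrpl46 rose by 0.63 ± 0.08 with a called interaction (adjusted p 8.2e-05 and 0.026), and Mrpl37 and Mrps35 rose by 0.65 and 0.55.

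Replication-dependent histone genes, whose mRNAs end in a stem-loop in place of a poly(A) tail, gave 6 raised and 0 lowered of 34. How mRNAs without such a tail entered the labelling for the array was not tested, so these signals need not follow the mature mRNAs. The raised share was 17.6%, and the number lay between 3 and 11 with single arrays left out (3 without Basal-ARP replicate 3 or Ox-ARP replicate 3, 11 without Basal-ARP replicate 1). The median was 0.18 in captured RNA, 0.11 without Basal-ARP replicate 3, and 0.33 in total RNA. H2ac22 read 11.76, 11.14, 10.93 and 11.87 on the Basal-ARP arrays and 12.18, 11.98, 12.73 and 12.37 on the Ox-ARP arrays, with no overlap and a wide spread within Basal-ARP (log2 0.89 ± 0.21, adjusted p 0.006). H2ac21, H2ac20 and H2ac10, also of the H2A family, rose by 0.83, 0.72 and 0.66, the calls of H2ac21 and H2ac10 being lost without single arrays, and the near-identical copies of this family can share probe signal.

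Of 40 splicing factors 3 rose and 10 fell, a lowered share of 25% beside 13.5%, with a median of -0.08 and of -0.08 relative to all genes under median scaling. With that scaling 4 rose and 4 fell, and without normalization 3 rose and 1 fell. Hnrnpk fell by 0.98 ± 0.13 (adjusted p 9.9e-05), although its second probe gave 0.08 ± 0.09. Hnrnpf fell by 0.59, and Sf3b6, a component of the U2 particle, rose by 0.69. Of 18 Sm and Lsm proteins 0 rose and 2 fell, namely Lsm12 (-0.47) and Snrpg (-0.32). The 3 other probes of Lsm12 changed by 0.18 to 0.36. In RNA decay and surveillance 5 rose (12.8%) and 4 fell (10.3%) of 39, shares no larger than those of all genes. Cnot7, a deadenylase, fell by 0.43, the decapping cofactor Dcp1b by 0.38 and Pelo, which rescues stalled ribosomes, by 0.31. Ascc1, of a complex that acts in repair and ribosome quality control, rose by 0.75 and Zfp598, the ubiquitin ligase that senses collided ribosomes, by 0.45.

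Of 19 base excision repair and nucleotide pool genes 4 rose (21.1%) and 3 fell (15.8%), with a median of 0.13. Nudt1, which hydrolyses oxidized guanine nucleotides, rose by 0.52 ± 0.12 (adjusted p 0.0048) and Polb, the gap-filling polymerase, by 0.62 ± 0.14 (adjusted p 0.0042). Tdp1, which removes adducts from DNA ends, fell by 0.64 ± 0.13 and by 0.87 in total RNA. A list of 12 genes, named for proteins reported to bind or clear oxidized RNA, also held hydrolases of nucleotide derivatives. Of its members 2 rose, Nudt1 and Nudt18, both such hydrolases. The 1 that fell was the stress granule protein Tia1 (-0.57 ± 0.18), with overlapping arrays.

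Mitochondrial import genes gave 3 raised and 0 lowered of 22, a raised share of 13.6% beside 13.9%. Their median was 0.20, and it was 0.08 without Basal-ARP replicate 3 and 0.08 when a gene's probes were averaged. The raised ones were Tomm22 (0.61), Grpel1 (0.48) and Timm17b (0.46). Respiratory chain subunits were called at a share near that of all genes (25.4% beside 27.4%), 11 raised and 7 lowered of 71. The number raised lay between 6 and 13 with single arrays left out (6 without Ox-ARP replicate 4, 7 without Basal-ARP replicate 2). The complex I subunit Ndufa1 rose by 0.76 ± 0.11 (adjusted p 0.00016) and Ndufc2, of the same complex, fell by 0.45 ± 0.09 (adjusted p 0.0024). In iron handling and heme synthesis 4 rose (18.2%) and 3 fell (13.6%) of 22. Ncoa4, the receptor that delivers ferritin for autophagy, fell by 0.81 ± 0.10 with a called interaction (adjusted p 5.5e-05 and 0.035). Nfs1, which supplies sulfur for iron-sulfur clusters, rose by 0.51.

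Proteasome genes gave 6 raised (14.6%) and 2 lowered (4.88%) of 41, the number raised lying between 6 and 12 with single arrays left out (12 without Basal-ARP replicate 1). The median was 0.16, with Psmc3, an ATPase of the regulatory particle, at 0.53 ± 0.09 beside the fall of Psmd5. Ubiquitin conjugating, F-box and deubiquitinating genes gave 5 raised and 18 lowered of 87, a lowered share of 20.7%, with a median of -0.05 and of -0.06 relative to all genes under median scaling, where 7 rose and 10 fell. The number raised lay between 2 and 4 with single arrays left out (2 without Basal-ARP replicate 3 or 4 or Ox-ARP replicate 4, 3 without Basal-ARP replicate 2 or Ox-ARP replicate 1). Usp15 fell by 1.06, Ube2j2 by 0.76 and Usp8 by 0.68, a second Usp8 probe also falling, by 0.64 (adjusted p 0.00029, 0.00017 and 0.00053 for the first probes). Of 51 HSP70 and HSP90 chaperones and co-chaperones 8 rose (15.7%), such as Fkbp4 (0.52), and 5 fell (9.8%), such as the J-domain protein Dnajb6 (-0.80), shares close to those of all genes. A second Dnajb6 probe gave -0.09 ± 0.11 (adjusted p 0.56). The number of chaperones raised lay between 3 and 8 with single arrays left out (3 without Ox-ARP replicate 2 or 4), and the number lowered between 3 and 6 with single arrays left out (3 without Basal-ARP replicate 2). None of the 8 subunits of the CCT chaperonin was called, and the smallest p belonged to Cct7 (0.36 ± 0.16, adjusted p 0.096). This depended on the fit: 2 were raised with chip as a block, 2 with a replicate block and 3 with array weights. Without Ox-ARP replicate 1 the number raised was 2.

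Rab1a stood far below the other Rab GTPases. Of 36 Rab GTPases 1 rose and 9 fell, a lowered share of 25% beside 13.5%, with a median of -0.04 and of -0.07 relative to all genes under median scaling, where 4 rose and 5 fell. After Rab1a came Rab14 of endosome to Golgi transport (-0.72 ± 0.09), Rab6a of the Golgi (-0.67 ± 0.17), Rab5a of early endosomes (-0.62 ± 0.14) and Rab12 (-0.59 ± 0.08). Rab14 and Rab12 had called interactions (adjusted p 0.039 and 0.04), a second Rab5a probe gave -0.45 ± 0.25, and of the other 2 probes of Rab6a, 1 fell by 0.37 and 1 gave 0.10 ± 0.13. Rab4a of recycling endosomes rose by 0.43, with overlapping arrays. Translocon and N-glycosylation genes gave 9 raised and 5 lowered of 42 (median 0.14). The number raised lay between 2 and 9 with single arrays left out (2 without Ox-ARP replicate 4, 4 without Ox-ARP replicate 1 or 2, 5 without Basal-ARP replicate 3 or 4), and the number lowered between 2 and 5 with single arrays left out (2 without Ox-ARP replicate 4, 3 without Basal-ARP replicate 2 or 4 or Ox-ARP replicate 1 or 2). Among them were the mannosyltransferase Alg1 at 0.44, the glucosyltransferase Alg6 at -0.58 and the signal recognition particle subunit Srp54a at -0.76. Of 122 solute carriers 22 rose and 10 fell, a raised share of 18%, and the number raised lay between 14 and 23 with single arrays left out (14 without Ox-ARP replicate 1). The 3 largest changes were the falls of Slc38a2, Slc1a5 and the mitochondrial pyrimidine carrier Slc25a36 (-1.14).

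Of 42 synaptic vesicle genes 7 rose (16.7%) and 8 fell (19%), not far from the shares of all genes, and the number raised lay between 4 and 8 with single arrays left out (4 without Basal-ARP replicate 2, 3 or 4 or Ox-ARP replicate 2). Synaptotagmin 5 (Syt5) rose by 0.86 ± 0.16 and synaptophysin (Syp) by 0.75 ± 0.13 (adjusted p 0.0012 and 0.00082), both without overlap. Napa, an adaptor of SNARE disassembly, rose by 0.38 with its brightest probe, while another probe fell by 0.62 (adjusted p 0.0019) and a further one gave 0.21 ± 0.14. Of 28 neurodegeneration genes 5 rose (17.9%) and 4 fell (14.3%), also close to all genes. Pink1, the kinase of mitochondrial quality control, rose by 0.80 ± 0.17 and the amyloid precursor relative Aplp1 by 0.76 ± 0.12 (adjusted p 0.003 and 0.00024). The ataxin 3 gene Atxn3 read 8.41, 8.14, 8.42 and 8.27 on the Basal-ARP arrays and 7.54, 7.5, 7.68 and 7.48 on the Ox-ARP arrays, without overlap (log2 -0.76 ± 0.08, adjusted p 2.2e-05). Its 2 other probes fell too, by 0.66 and 0.29, and its interaction was called (-0.51 ± 0.12, adjusted p 0.036). Of the neuroblastoma markers Chga and Gap43 rose by 0.32 and 0.33, other Chga probes giving -0.11 ± 0.10 and 0.21 ± 0.14, and Gata3 and Isl1 fell by 0.28 and 0.27.

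Of 33 replication factors 3 rose (9.09%) and 5 fell (15.2%), the number lowered lying between 3 and 5 with single arrays left out (3 without Basal-ARP replicate 2 or 4 or Ox-ARP replicate 3 or 4). Mcm7, a subunit of the replicative helicase, read 8.49, 8.71, 8.72 and 8.52 on the Basal-ARP arrays and 7.55, 7.3, 7.76 and 7.22 on the Ox-ARP arrays, without overlap (log2 -1.15 ± 0.14, adjusted p 3.5e-05), with a called interaction (-0.97 ± 0.19, adjusted p 0.018). Of 38 mitosis genes 5 rose (13.2%) and 4 fell (10.5%), the topoisomerase Top2a by 0.70 ± 0.09 (adjusted p 5.5e-05). Of 17 BCL2 family and caspase genes 2 rose, Bad by 0.66 and Bcl2l13 by 0.42, and 5 fell, Casp2 by 0.46. The number lowered in this list lay between 2 and 5 with single arrays left out (2 without Ox-ARP replicate 4, 3 without Basal-ARP replicate 1 or 2 or Ox-ARP replicate 2 or 3), and it was 0 under median scaling, with 5 raised. Tubulins and microtubule-associated proteins gave 5 raised and 2 lowered of 26, Mid1 being one of the lowered, with the tubulin folding cofactors Tbcb and Tbcd at 0.58 and 0.47. Of 15 dynein and dynactin genes Dync1h1, the motor heavy chain, rose by 0.82 ± 0.16 and 2 light intermediate chains fell.

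In metabolism, of 14 glycolytic enzymes 2 rose, Pkm by 0.53 ± 0.12 and Pfkm by 0.27 ± 0.09, and 0 fell, with a median of 0.20. The number raised lay between 1 and 4 with single arrays left out (1 without Basal-ARP replicate 3 or Ox-ARP replicate 1 or 2, 4 without Basal-ARP replicate 1). For Pfkm a second probe rose by 0.50 and the remaining one fell by 0.91 (adjusted p 0.00016). Of 20 cholesterol synthesis genes 4 rose and 3 fell, the number raised lying between 2 and 6 with single arrays left out (2 without Basal-ARP replicate 3 or 4 or Ox-ARP replicate 1 or 4). Nsdhl, Hsd17b7 and Hmgcs1 fell by 0.76, 0.44 and 0.43, and 2 further Nsdhl probes fell by 0.70 and 0.64, while another gave 0.23 ± 0.10 (adjusted p 0.087). Among 155 Zfp zinc finger genes 13 rose and 26 fell, with a median of -0.10 in captured and 0.01 in total RNA, and -0.14 relative to all genes under median scaling. With that scaling 16 rose and 10 fell, and without normalization 6 rose and 2 fell. The median was -0.05 without Basal-ARP replicate 3 and -0.06 without Ox-ARP replicate 1, and the number lowered was 17 without Ox-ARP replicate 4. Zfp597 fell by 0.79 ± 0.09 and Zfp46 by 0.62 ± 0.09, both with called interactions (adjusted p 0.01 and 0.011). Zfp771 rose by 0.73 and with a second probe by 0.96.

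**Figure D4:**
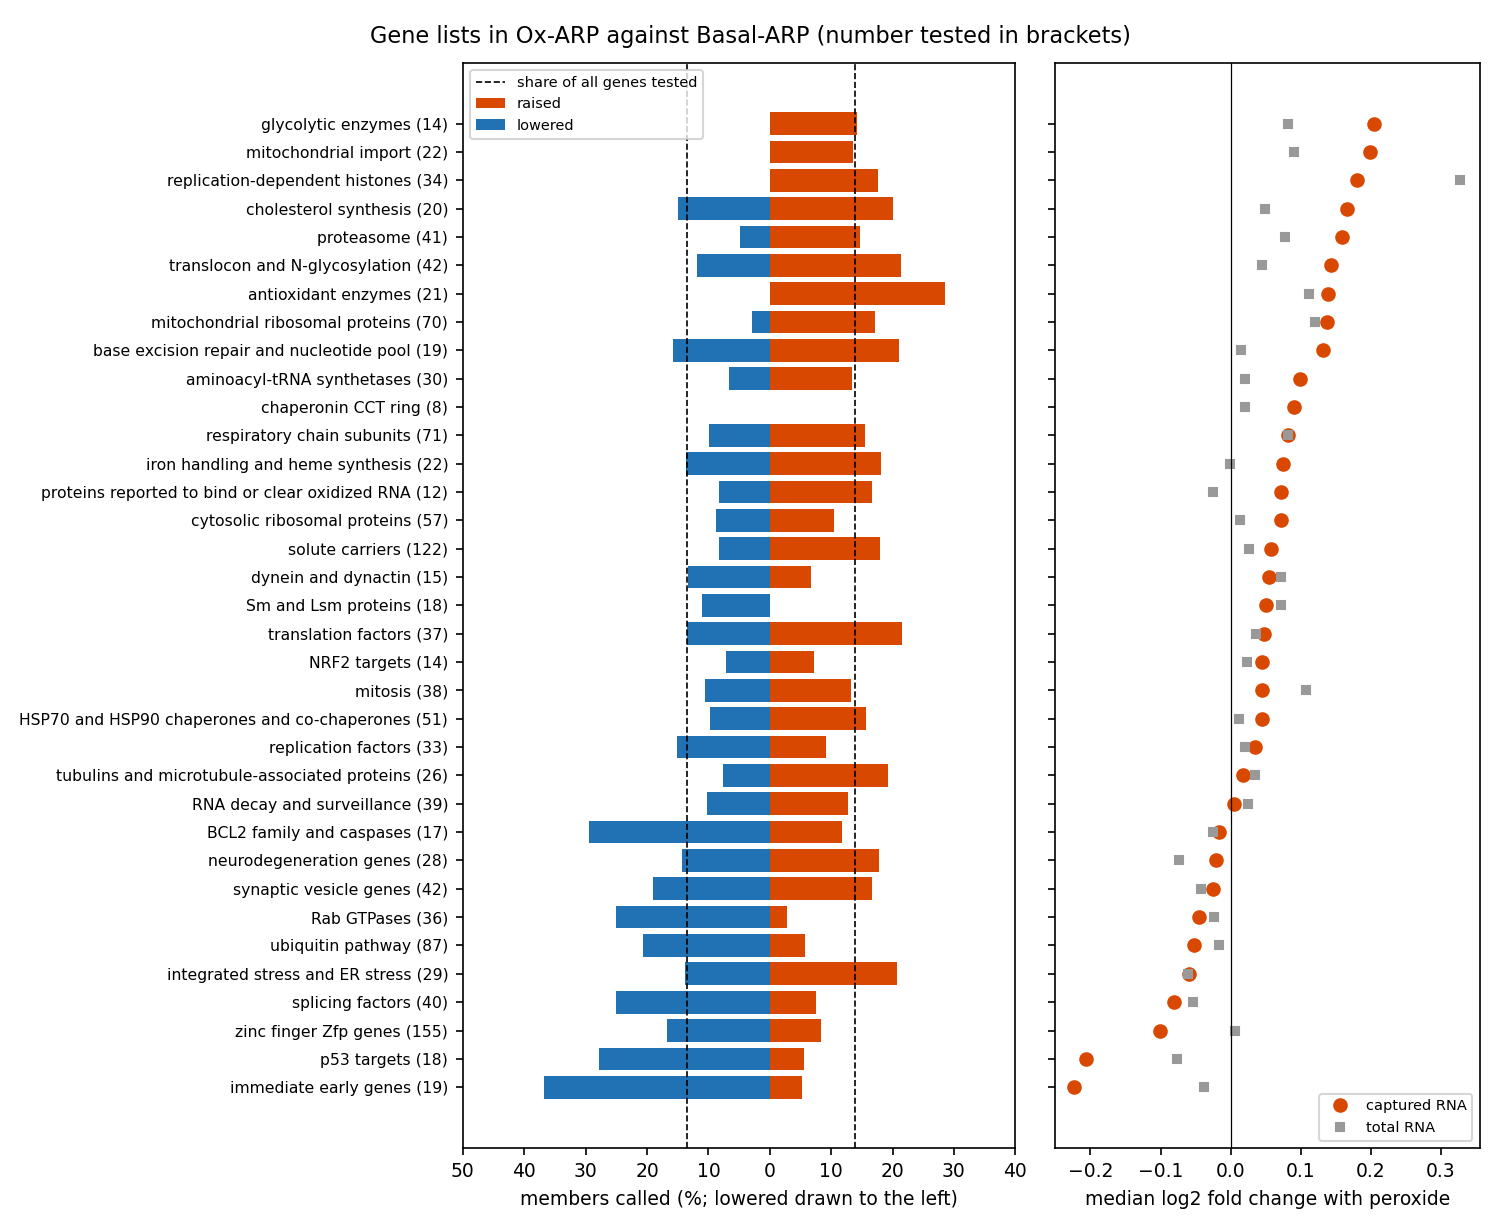
For 35 gene lists, the left panel gives the share of tested members called raised (orange, to the right) or lowered (blue, to the left) in Ox-ARP against Basal-ARP, with dashed lines at the shares of all genes, 13.9% and 13.5%. The right panel gives each list's median log2 change in captured (circles) and total RNA (squares). In captured RNA immediate early genes and p53 targets lay lowest, at -0.22 and -0.21. Glycolytic enzymes and mitochondrial import genes lay highest, both at 0.20.

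Different probes of a gene did not always agree in direction. Of 371 genes with 2 or more called probes, 65 (17.5%) had probes called in opposite directions. Of the other probes of called genes, 576 of 772 (74.6%) had the sign of the chosen probe. Beta-actin, Actb, had the widest gap. Its brightest probe changed by -0.06 ± 0.08 (adjusted p 0.62), and its other probes ranged from a fall of 0.65 ± 0.17 to a rise of 1.46 ± 0.36, both called. Wdr45b, of the autophagy machinery, rose by 0.50 with 1 probe and by 0.53 with another, and fell by 1.15 and 0.36 with the remaining ones, all called. For Uros, of heme synthesis, 1 probe rose by 0.44 and the other fell by 0.48. Gapdh changed by 0.15 ± 0.08 and 0.18 ± 0.09 with its 2 probes, neither called.

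The size of a gene in the genome moved with its change. The 7462 genes with a known genomic span were put into 4 equal groups by span, and the median log2 change in captured RNA was 0.11, 0.07, -0.0049 and -0.08 from the shortest to the longest. Raised genes made up 19.7% of the shortest group, whose median span was 5.12 kb, and 7.34% of the longest, whose median was 87.5 kb. Lowered genes went from 7.45% to 20.3%. The Spearman correlation between span and change across genes was -0.24 in captured RNA and -0.29 in total RNA, and in the 4 same-numbered comparisons it lay between -0.11 and -0.34. It was -0.15 on the first chip and -0.30 on the second. These are descriptions across genes that share arrays.

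Genes in crowded parts of the genome were raised more often. Among 7438 genes grouped by the number of protein-coding genes within 0.25 Mb, raised genes went from 7.74% in the sparsest group, with a median of 3 neighbours, to 21.5% in the densest, with a median of 21. Lowered genes went from 19.2% to 6.56%. The Spearman correlation was 0.24 in captured and 0.14 in total RNA, between 0.10 and 0.31 in the same-numbered comparisons, and span and neighbours were themselves correlated at -0.50. The GC content of the promoter, known for 6143 genes (82.3%), correlated with the change at -0.06 in captured and -0.17 in total RNA. By signal level the called shares differed less, with 12% raised and 11.7% lowered in the dimmest of 4 groups and 13.1% and 13.8% in the brightest.

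**Figure D5:**
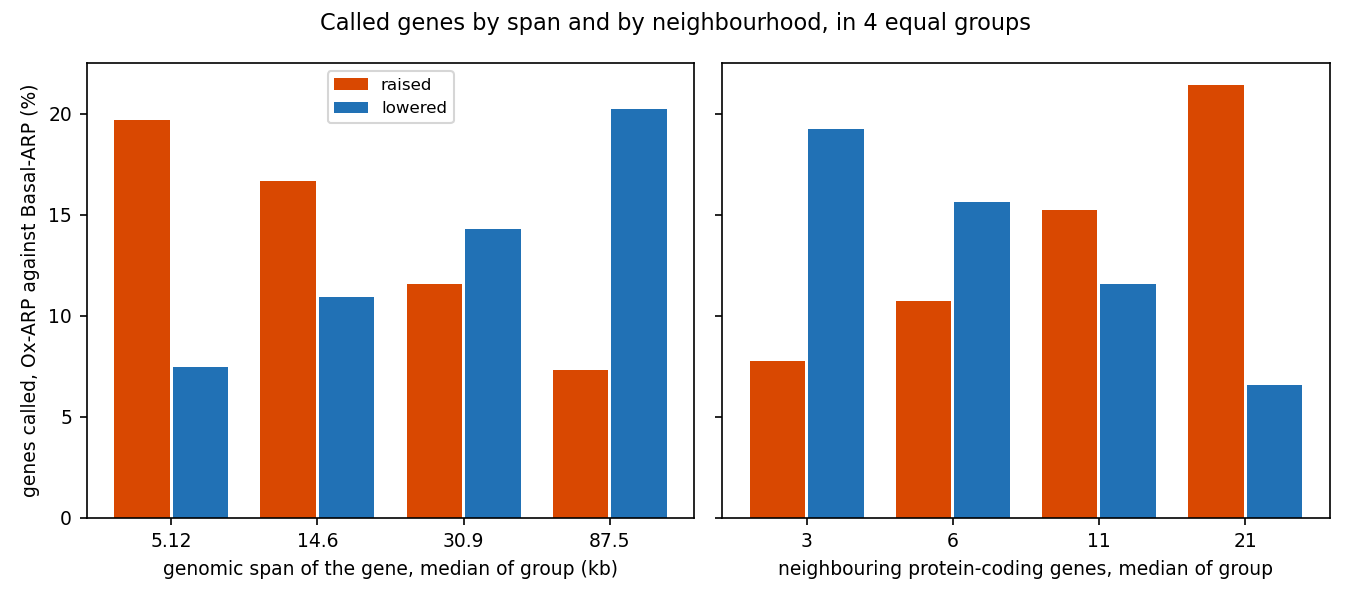
Share of genes called raised (orange) or lowered (blue) in Ox-ARP against Basal-ARP, in 4 equal groups by genomic span (left; median span in kb under each pair of bars) and by the number of neighbouring protein-coding genes within 0.25 Mb (right; median under each pair). Raised genes fell from 19.7% to 7.34% with span and climbed from 7.74% to 21.5% with neighbours.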

How the data were processed

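Each array held biotinylated cRNA of 1 sample, made with the Ambion TotalPrep kit and stained with Cy3-streptavidin, per the labels' protocols. The authors deposited, for every probe, an intensity before any normalization and a p-value of detection, and the submitters' processing notes name GenomeStudio 2010.2. A second table of the same arrays that the authors deposited holds processed intensity values. Its columns followed the scanner signal of the same array linearly, with column means of 376. Medians ran from 12.3 to 16.3 and 28.2% of values were below 0. Its background method is not given in the sources used here, and it served as an alternative.

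Intensities were background corrected with normexp in limma 3.58.1 (R 4.3.3), with negative controls inferred from the detection p-values and an offset of 16, then quantile normalized and taken to log2, which draws changes of dim probes towards 0. A probe stayed in (10794 of 25697) when its detection p was under 0.01 on every array of any group. Symbols came from the platform annotation (23978 probes with 1 symbol, 0 with several, 1719 with none), and 23962 probes matched the RefSeq table of GRCm38.p6, used for names, span and neighbours. Genes with several kept probes (1974) were represented by the brightest. The 8072 features, called genes here, were 7464 named genes and 608 probes without a symbol.

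Group means were estimated over the 16 arrays together in limma, with moderated variances, 12 residual and 5.34 prior degrees of freedom. The threshold was 0.05 after Benjamini-Hochberg adjustment across the 8072 genes. The number of arrays limits the precision. On simulated data for Ox-ARP against Basal-ARP, 200 of 8072 genes were changed. Of changes of 0.5 on the log2 scale 53% were recovered and of changes of 1 97%, with 11 false calls (6.83%). The simulated noise was independent between genes, while deviations of the real arrays were shared across genes. Far fewer genes were changed than were called in the data, so these rates need not hold there. Where a gene was detected on no array of a group, its change is a bound: the mean of the brighter group against a floor for the dimmer one, set on each array by the dimmest detected probe or by the gene's own value if higher.

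The members, the 36 gene lists and the tests were chosen with earlier results of these data known. Named genes followed a rule: 15 most raised and 15 most lowered without overlap, 8 each way by p and by interaction, 3 of each list by p, up to 6 each way that crossed detection, 6 with the widest gap between opposite probes, and a few stress and reference genes (Actb, Cdkn1a, Ddit3, Fos, Gapdh, Hmox1, Srxn1). Some were left out for length, as were predicted genes and unnamed probes. Nfe2l2, Mafg, Keap1, the markers, the interaction-only genes, genes of the 18 called in both comparisons and list members beyond 3 per list were chosen after their values were seen. Alternatives changed scaling, background correction, the filter, the probe rule, the samples in the fit and the treatment of chip, replicate number and array weights.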

Additional observations from a re-analysis of the deposited data

Results flagged for a closer look

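A single array lay far from the other 3 of its group, by the gap to its nearest neighbour over the range of the group, in 15 of 316 groups of 4 values tested (4.75%). Chance gives about 1 in 20, so these are listed with no reading. The values are log2 intensities. Basal-ARP replicate 1 was set apart for Eapp (5.05). Basal-ARP replicate 3 was set apart for Elfn2 (6.63) and Gipc1 (6.48). Ox-ARP replicate 1 was set apart for Eif2d (8.33), Gipc1 (9.17), Grpel1 (10.98), Nfkbiz (7.26) and Syt5 (7.57). Ox-ARP replicate 3 was set apart for Hexa (9.87), Lypla1 (7.84), Pebp1 (9.62), Phlda3 (8.39) and Syp (9.93). Ox-ARP replicate 4 was set apart for Hspa5 (8.30). The mean signal of Basal-total replicate 3 was 533.

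For 37 of the named genes the peroxide change differed between captured and total RNA by the interaction test in limma, at an adjusted p under 0.05 over all 8072 genes. The log2 change in captured RNA minus that in total RNA is given for each. It was most negative for Mid1 (-2.61), Ccdc144b (-2.56), Rab1a (-1.77), Prf1 (-1.35), Lypla1 (-1.30), Slc1a5 (-1.24), Melk (-1.11), Erich5 (-1.08) and Ccne2 (-1.04). Next came Psmd5 (-1.03), Mcm7 (-0.97), Nfe2l2 (-0.95), Slc38a2 (-0.86), Mafg (-0.82), Rhbdl2 (-0.80), Rnu6 (-0.78), Fos (-0.74) and Zfp597 (-0.73). Smaller negative differences belonged to Top2a (-0.71), Zfp46 (-0.67), Ncoa4 (-0.63), Rab14 (-0.54), Atxn3 (-0.51) and Rab12 (-0.50). It was most positive for Bco1 (1.11), Metrn (1.03), Elfn2 (1.02), Vat1 (1.01), Pebp1 (0.91), Cuedc1 (0.90), Cacng7 (0.85), Pmm1 (0.80) and Hexa (0.73). Smaller positive differences belonged to Pdxp (0.72), Ganab (0.69), Prr15 (0.67) and Mrpl46 (0.56). Mid1, Ccdc144b and Bco1 were below detection on part of the groups, so their estimates rest on values near the floor of the arrays.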

How the results depend on the processing

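For the 2214 genes called in Ox-ARP against Basal-ARP, the count lay between 1579 and 2242 when single arrays were left out. It fell to 937 without normalization and to 715 and 700 within the first and the second chip, where each fit has 8 of the arrays. With chip as a block it was 2953, with array weights 2723, with the compared groups alone 1810 and with the authors' processed values 2154. The 25 genes called in total RNA became 16 with median scaling, 1 without normalization, 49 with the authors' values, 10 among genes detected on all 16 arrays, 62 with chip as a block, 1 and 0 within the chips, 93 with array weights and 13 to 29 with single arrays left out. The 125 interaction calls became 5 without normalization, 218 with the authors' values, 526 with chip as a block, 3 and 0 within the chips, 479 with array weights and 56 to 171 with single arrays left out. On the second chip alone, 522 genes in total RNA and 881 for the interaction had an unadjusted p under 0.05. The main fit, with all 16 arrays, had 834 and 1440. Same-numbered arrays deviated together with correlations of 0.62, 0.017, 0.33 and 0.26, so the numbers do not pair the samples throughout; with a replicate block the counts were 3119, 84 and 687. Among single genes, sign turned for Actb (0.037) and Egr1 (0.012) without normalization, for Actb (0.47), Lsm12 (0.071), Napa (-0.0079), Pfkm (-0.047), Srxn1 (-0.089), Uros (-0.017) and Wdr45b (-0.12) when a gene's probes were averaged, for Hmox1 (-0.014) on the second chip, and for Ddit3 with array weights (-0.0083) or without Ox-ARP replicate 1 (-0.022, against 0.19 without Ox-ARP replicate 2). The cause was not tested, other than that averaging mixes probes of opposite sign. Of 143 called genes named, 28 lost their call without at least 1 array, between 10 and 20 for any one array left out, and 0 turned. These were Chga, Edem1, Egr1, Elfn2, Gata3, Glrx5, Gpx4, Grpel1, H2ac10, H2ac21, Hsp90b1, Hspa5, Isl1, Jun, Lsm12, Nfkbia, Nqo1, Nudt18, Pfkm, Rab4a, Snrpg, Sod1, Taldo1, Tia1, Tnfrsf10b, Tomm22, Wdr45b and Zfp598, with adjusted p from 0.051 (Egr1 without Basal-ARP replicate 1) to 0.161 (Glrx5 without Ox-ARP replicate 2). Depth is set by the arrays: 480 of the 8072 genes were not detected on all 8 captured arrays, and their changes rest in part on values near the floor.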

Other observations

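Gene families outside the lists, chosen after their values were seen, had uneven counts in Ox-ARP against Basal-ARP, where 13.9% of all genes were raised and 13.5% lowered. The unevenness follows in part from that choice and is given as a description. Each gene was counted by its brightest probe, and these counts were not taken under other scalings. Of 18 Zbtb genes, which encode zinc finger transcription factors with a BTB domain, 0 rose and 7 fell, with a median of -0.27 in captured and -0.03 in total RNA. Of 14 nucleoporin genes named Nup, 0 rose and 5 fell, and of 19 Cep genes of the centrosome 1 rose and 7 fell. In the other direction, of 14 Nudt genes, which encode hydrolases of nucleotide derivatives, 5 rose and 0 fell (median 0.27 in captured and 0.12 in total RNA). Of 105 Tmem genes of transmembrane proteins 24 rose and 6 fell, of 31 Wdr genes with WD repeats 9 rose and 2 fell, and of 17 Polr genes of RNA polymerase subunits 5 rose and 2 fell. Of 21 Ddx helicase genes 7 rose and 3 fell, and of 9 Hdac deacetylase genes 3 rose and 1 fell. The median genomic span was 16 kb for the Zbtb, 36.8 kb for the Nup and 35 kb for the Cep genes, and 13.7 kb for the Nudt, 12.4 kb for the Tmem, 21.4 kb for the Wdr, 6.47 kb for the Polr, 15.5 kb for the Ddx and 26.5 kb for the Hdac genes. These spans are medians over all tested members of a family, called or not, and the part of span in these counts was not tested.

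Plekha5, Nfkbid and Fcer2a, also named after their values were seen, were called lower both in captured RNA (-1.04 ± 0.14, -1.0 ± 0.11 and -0.85 ± 0.11) and in total RNA (-1.17 ± 0.14, -0.68 ± 0.11 and -0.85 ± 0.11, limma, 4 arrays per group). Nfkbid encodes a nuclear regulator of NF-kappaB like Nfkbiz, and Fcer2a the low-affinity receptor for immunoglobulin E.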
